A study of Homo sapiens with 6 samples.

Results

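Cyclin-dependent kinase (CDK) inhibitors are small proteins that bind cyclin-CDK complexes or CDK subunits and hold the cell cycle back. There are 2 families. The Cip/Kip proteins p21, p27 and p57, encoded by CDKN1A, CDKN1B and CDKN1C, bind cyclin-CDK complexes of G1 and S phase, and the INK4 proteins p16, p15, p18 and p19, encoded by CDKN2A, CDKN2B, CDKN2C and CDKN2D, bind CDK4 and CDK6 and keep the D-type cyclins off them. CDKN1A is a well-known gene raised by histone deacetylase (HDAC) inhibitors in cancer cells. The genes were chosen by name, and all 7 of them were found by NCBI Gene ID among the 16623 genes of the RNA-seq files, with 3 in the Cip/Kip family and 4 in the INK4 family.

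The cells were MDA-MB-231, a triple-negative breast cancer cell line that is known to have lost the CDKN2A and CDKN2B locus. All 6 cultures were adherent MDA-MB-231 cells. They received the HDAC inhibitor PCI-24781 at 100 nM or 200 nM, or its solvent DMSO, for 24 h or 48 h, and each of the 6 conditions gave 1 library. The labels give no replicate cultures, so no difference between libraries has a replicate check, and no p-value was calculated. The authors deposited FPKM, in which fragments are scaled for transcript length and library size, which allows levels to be compared between genes.

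The spacing of low FPKM values puts the depth of the libraries between 15600000 and 17600000 fragments. Intervals given here are 95% Poisson intervals on the inferred fragments, which leave out the variation between cultures and hold counting error alone. A change is the difference in log2(FPKM + 1), which understates the change of low genes, and a call here means a 2-fold or larger change in a gene whose FPKM reached 1 in one or both libraries compared. The DMSO libraries themselves differed: 2.62% of the compared genes were called between DMSO 48 h and DMSO 24 h, against 0.469% for 100 nM and 0.266% for 200 nM when each 48 h treatment was set beside DMSO 48 h. Time in culture, a property of 1 library and an exchange of labels among the 48 h libraries cannot be told apart with 1 library each, and every 48 h value is given under its label as deposited. For each CDK inhibitor or listed gene called against DMSO of the same time, the change against the other DMSO library stands beside it. The markers of the cell line were present in every library. VIM had an FPKM between 1629.38 and 2053.39, while the hormone receptor genes ESR1 and PGR did not exceed 0.04 and 0.03. Of 6 leukocyte and endothelial markers, 5 were found, with a summed FPKM between 72.94 and 128.07, nearly all of it from CD68, a lysosomal gene that many cell lines express. CD3E and CDH5 were at or below 0.04, and PTPRC lay between 0.76 and 1.01. In the order DMSO, 100 nM and 200 nM, CD68 had 118.95, 84.72 and 70.77 at 24 h, then 87.88, 126.20 and 69.59 at 48 h. The endothelial gene PECAM1 had 0.38, 0.64 and 1.25 at 24 h, then 1.52, 1.07 and 2.33 at 48 h. PECAM1 thus had the order of CDKN1A at both times and CD68 the opposite order, while CDH5, the other endothelial marker, did not exceed 0.03. The part of these markers in the results was not tested, and in these bulk samples fewer cells of a type and less RNA per cell cannot be told apart. The 6 luminal breast markers summed to between 17.54 and 28.65, most of it ERBB2. No gene of these marker lists was called in the comparisons with DMSO of the same time.

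CDKN1A (NCBI Gene ID 1026, chromosome 6 from 36644237 to 36655116 in the hg19 coordinates of the files) encodes p21 and had the widest range of the 7 genes on the log2(FPKM + 1) scale. Its proximal promoter is shown because it is the best-known site of HDAC inhibitor response in this family. The printed RefSeq promoter sequence (GRCh38.p14, chr6:36678464-36678657, plus strand, 5′ to 3′) stops before the first CDKN1A exon of GENCODE release 29 in this window. Capitals mark GGGCGG, the GC box that the factors SP1 and SP3 are known to bind.

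CDKN1A promoter: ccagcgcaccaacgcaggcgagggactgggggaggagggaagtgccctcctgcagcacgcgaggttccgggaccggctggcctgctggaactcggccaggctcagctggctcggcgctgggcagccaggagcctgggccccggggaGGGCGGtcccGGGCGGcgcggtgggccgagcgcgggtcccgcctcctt

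CDKN1A start-proximal boxes: ggcgggcccGGGCGGGGCGGttgtatatca

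The second line is the 30 bases at chr6:36678660-36678689, where a pair of boxes share 1 base. These bases lie past the start of that GENCODE exon and before the RefSeq start. In all, the 250 bases before the RefSeq start held 4 boxes on the coding strand, whose first bases lay 104, 94, 45 and 40 bases before the start. GGGCGG was searched on both strands. Of 35116 RefSeq promoter windows of the same length, 42.6% held at least 1 box and 7.63% held at least 4. RefSeq windows were found for 6 of the 7 genes. CDKN1C had no entry. The single CDKN1B window held 1 box, and 1 of the 3 CDKN2C windows held 5. A match describes the letters only.

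At 24 h, the CDKN1A level followed the dose. Its FPKM was 13.18 (DMSO 24 h), 30.61 (100 nM) and 48.84 (200 nM), with counting intervals of 12.0 to 14.4, 28.8 to 32.5 and 46.6 to 51.2. The 3 intervals were separate. Against DMSO 24 h, CDKN1A was 2.32-fold higher at 100 nM and 3.71-fold higher at 200 nM as a ratio of FPKM, and its log2 changes were 1.16 and 1.81. A change in the same direction at least as large was found in 0.871% of the 11475 genes compared at 100 nM and in 0.738% of the 11660 compared at 200 nM. Against DMSO 48 h, the log2 changes of the same libraries were -0.52 and 0.14. In GENCODE release 29, CDKN1A overlaps the noncoding gene DINOL on the opposite strand over 951 bases, and without strand their fragments cannot be told apart.

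In the libraries labelled 48 h, the order was different. CDKN1A had an FPKM of 44.25 (DMSO 48 h), 25.81 (100 nM) and 52.88 (200 nM), with intervals of 42.1 to 46.5, 24.2 to 27.5 and 50.4 to 55.4. The 100 nM library was the lowest of the 3 and the 200 nM library the highest. Its log2 change was -0.76 at 100 nM, where the DMSO level was 1.71-fold higher, and 0.25 at 200 nM. A decrease at least as large as that at 100 nM was seen in 0.877% of the compared genes, and an increase at least as large as that at 200 nM in 9.93%. Neither passed 2-fold. Against DMSO 24 h, the log2 changes of the 48 h libraries were 0.92 at 100 nM and 1.93 at 200 nM.

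The DMSO level of CDKN1A was 3.36-fold higher at 48 h than at 24 h, a log2 change of 1.67, and 45 of 11490 genes, CDKN1A included, had an increase at least as large. The dose step needs no DMSO library, but at 48 h it still rests on the labels of the 100 nM and 200 nM libraries. From 100 nM to 200 nM, CDKN1A was higher by 0.66 at 24 h on the log2 scale, which was not a call, and by 1.01 at 48 h, which was. In these comparisons 0.343% of the genes were called higher at 24 h and 1.71% at 48 h. Across all libraries, the order from low to high was DMSO 24 h, 100 nM 48 h, 100 nM 24 h, DMSO 48 h, 200 nM 24 h and 200 nM 48 h. In this order the counting intervals of the 200 nM libraries overlapped, those of DMSO 48 h and 200 nM 24 h nearly touched, and the other neighbours were separate.

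**Figure D1:**
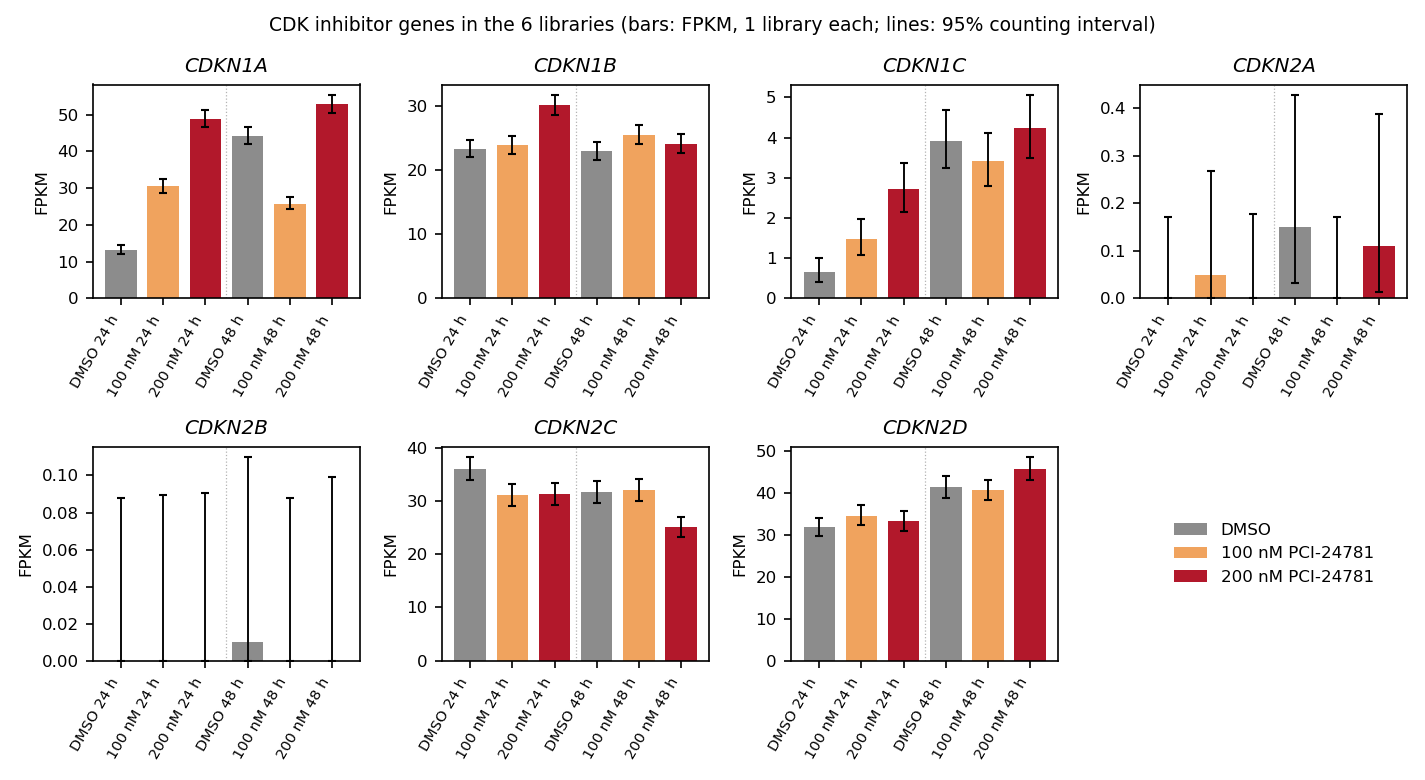
FPKM of each of the 7 CDK inhibitor genes (vertical axis, starting at 0) in the 6 libraries, with bars for the single library of each condition and lines for the 95% counting interval. CDKN1A climbs from 13.18 to 48.84 over the doses at 24 h and is lowest at 100 nM among the 48 h libraries, CDKN1C is above 3 in the 48 h libraries only, and CDKN2A and CDKN2B stay at or below 0.15.

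CDKN1C (NCBI Gene ID 1028, chromosome 11 from 2904448 to 2906995), which encodes p57, had a low level that was higher at each dose step at 24 h and highest in the 48 h libraries. Its FPKM was 0.65 (DMSO), 1.48 (100 nM) and 2.72 (200 nM) after 24 h, with intervals of 0.398 to 1.0, 1.08 to 1.98 and 2.16 to 3.37. At 48 h the values were 3.91 in DMSO, 3.41 at 100 nM and 4.23 at 200 nM. The 48 h intervals of 3.24 to 4.68, 2.79 to 4.12 and 3.50 to 5.07 overlapped one another, and a difference between the 48 h libraries was not detectable at this depth. In the order of levels, the interval of 200 nM 24 h also overlapped that of its upper neighbour, 100 nM 48 h.

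The ratio of FPKM to DMSO 24 h was 2.28 at 100 nM and 4.18 at 200 nM. On the log2(FPKM + 1) scale the changes were 0.59, which was not a call, and 1.17, which was. An increase at least as large as at 200 nM was found in 2.82% of the compared genes. Against DMSO 48 h, the 200 nM 24 h library had a log2 change of -0.40. Between the DMSO libraries, CDKN1C was 6.02-fold higher at 48 h, with a log2 change of 1.57, and 57 genes, CDKN1C included, increased at least as much. The changes at 48 h against DMSO of the same time were -0.15 and 0.09. About 20.3 fragments are inferred behind the lowest value, in DMSO 24 h, and about 119.1 behind the value in DMSO 48 h.

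CDKN1B (NCBI Gene ID 1027, chromosome 12 from 12870204 to 12875317), which encodes p27, was expressed at a steady level. Its FPKM was 23.34 (DMSO), 23.90 (100 nM) and 30.13 (200 nM) after 24 h, then 22.99 (DMSO), 25.51 (100 nM) and 24.15 (200 nM) after 48 h. The 200 nM 24 h library stood above the other 5, with an interval of 28.6 to 31.8 that touched none of theirs. Its log2 change of 0.35 was not a call, and 22.3% of the compared genes increased at least as much in that comparison. The other 3 changes against DMSO of the same time were 0.03, 0.14 and 0.07. In GENCODE release 29, CDKN1B overlaps the sense intronic gene AC008115.3 on the same strand over 549 bases, whose part in these values was not tested.

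Of the INK4 genes, CDKN2C and CDKN2D were well expressed. CDKN2C (NCBI Gene ID 1031, chromosome 1 from 51434367 to 51440309), which encodes p18, had an FPKM of 36.04 (DMSO), 31.16 (100 nM) and 31.29 (200 nM) after 24 h, then 31.65 (DMSO), 32.03 (100 nM) and 25.12 (200 nM) after 48 h. The lowest library was 200 nM 48 h, whose interval of 23.2 to 27.1 lay below those of the other 5. The log2 change there was -0.32, and 3.93% of the compared genes decreased at least as much. At 24 h the log2 change was -0.20 at both doses, and at 100 nM 48 h it was 0.02.

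CDKN2D (NCBI Gene ID 1032, chromosome 19 from 10677138 to 10679655), which encodes p19, differed more by time than by treatment. It had an FPKM of 31.94 (DMSO), 34.68 (100 nM) and 33.36 (200 nM) after 24 h, against 41.54 (DMSO), 40.75 (100 nM) and 45.84 (200 nM) after 48 h. The 24 h and 48 h libraries did not overlap. The 4 log2 changes against DMSO of the same time were 0.12, 0.06, -0.03 and 0.14, and the difference between the DMSO libraries was 0.37. None of these was a call.

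CDKN2A (NCBI Gene ID 1029, chromosome 9 from 21967751 to 21994490) encodes p16 and, from another reading frame, ARF, and the files give 1 value for its 4 transcripts. It was listed at 0 in DMSO 24 h, 100 nM 48 h and 200 nM 24 h, and had an FPKM of 0.05 (100 nM 24 h), 0.11 (200 nM 48 h) and 0.15 (DMSO 48 h). The highest value corresponds to about 3.1 fragments, and 3 fragments would be an FPKM of 0.143 in that library. CDKN2B (NCBI Gene ID 1030, chromosome 9 from 22002902 to 22009312), which encodes p15, was listed at 0 in 5 libraries and at 0.01 in DMSO 48 h, which is less than 1 fragment. No difference in either gene was detectable at this depth, and the cell line is known to have lost this locus. The sequences of these neighbours are similar, and fragments may have been split between them.

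Of 12 genes listed around them on the short arm of chromosome 9, 4 had a row in the files. MTAP, an enzyme of methionine salvage that lies 101781 bases from CDKN2A in the coordinates of the files, had an FPKM between 0.20 and 0.38. KLHL9, a ubiquitin ligase adaptor 632322 bases from CDKN2A, was at or below 0.01. Farther out, FOCAD lay between 0.48 and 0.67, and TUSC1, 3681897 bases away on the other side, between 2.52 and 3.59. LINC03106, the next gene of the files on that side and not on the list, lay between 0.66 and 1.41. The other 8 listed genes were not analysed here. Every gene with a row in the files had an FPKM of at least 0.01 in at least 1 library.

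The summed FPKM of the 7 genes was 105.15 (DMSO), 121.88 (100 nM) and 146.34 (200 nM) after 24 h, and 144.50 (DMSO), 127.51 (100 nM) and 152.33 (200 nM) after 48 h. CDKN1A made up 12.5%, 25.1% and 33.4% of the sum in the 24 h libraries in order of dose, then 30.6%, 20.2% and 34.7% in the 48 h libraries. The INK4 sum moved little, between 64.65 and 73.35. The Cip/Kip sum was 37.17, 55.99 and 81.69 with rising dose at 24 h, then 71.15, 54.73 and 81.26 in the 48 h libraries. In DMSO 24 h the INK4 genes held 64.7% of the sum and CDKN2C was the highest of the 7, and in both 200 nM libraries and in DMSO 48 h CDKN1A was the highest.

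**Figure D2:**
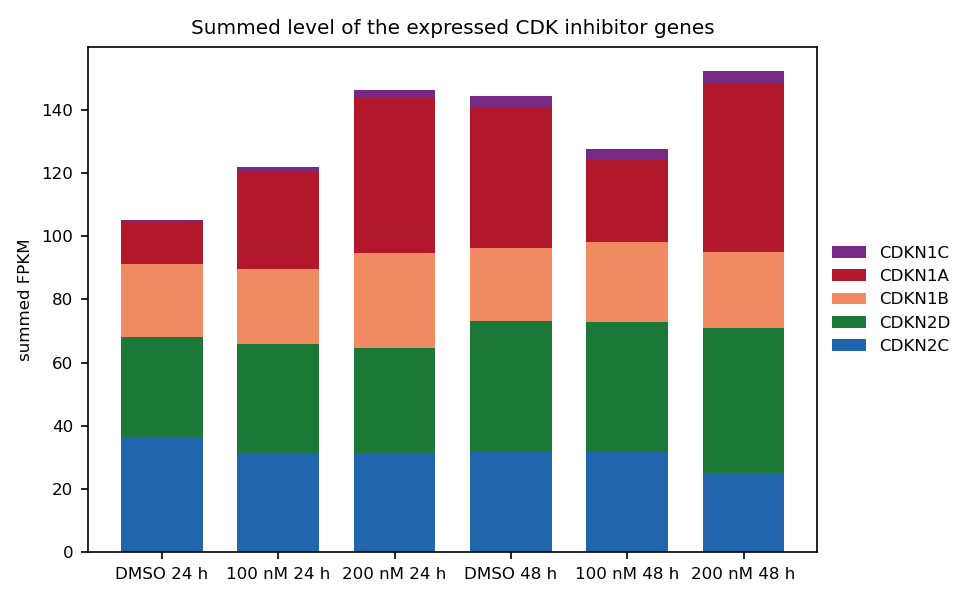
Summed FPKM of the 5 expressed CDK inhibitor genes (vertical axis, starting at 0) in each library, with a colour for each gene. The total ranges from about 105 in DMSO 24 h to about 152 at 200 nM 48 h, and the CDKN1A band changes most in height.

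Of the 7 genes, 5 reached an FPKM of 1 in one or both libraries of each comparison. CDKN1C, at 0.65 in DMSO 24 h, was compared with that library only through its level in the other. Against DMSO 24 h, 1 of the 5 was called higher at 100 nM, where 1.35% of all compared genes were called higher, and 2 of the 5 were called higher at 200 nM, where 4.49% were. None was called lower at 24 h, where 0.131% of the genes were called lower at 100 nM and 1.48% at 200 nM. Against DMSO 48 h, 0 of the 5 were called higher or lower. Among all compared genes 0.0608% were called higher and 0.408% lower at 100 nM, and 0.206% higher and 0.06% lower at 200 nM. At a lower threshold of 1.5-fold, CDKN1C was added to the genes called higher at 100 nM 24 h, where 5.58% of all genes were, and CDKN1A was called lower at 100 nM 48 h, where 1.76% were. In DMSO 48 h against DMSO 24 h, 2 of the 5 were called higher, beside 2.49% of all genes. With an FPKM of at least 1 required in both libraries, only CDKN1A was called higher there and at 200 nM 24 h. The median log2 changes of the 5 were 0.12 (100 nM) and 0.35 (200 nM) after 24 h, then -0.03 and 0.09 after 48 h. The median of all compared genes was 0.01, 0.01, -0.01 and 0.01. The 0.35 was the value of CDKN1B, which was not a call. The 24 h medians depended on the reference, and against DMSO 48 h they were -0.25 (100 nM) and -0.02 (200 nM). The comparisons at each time share a DMSO library, and those at 24 h share DMSO 24 h with the comparison between the DMSO libraries.

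**Figure D3:**
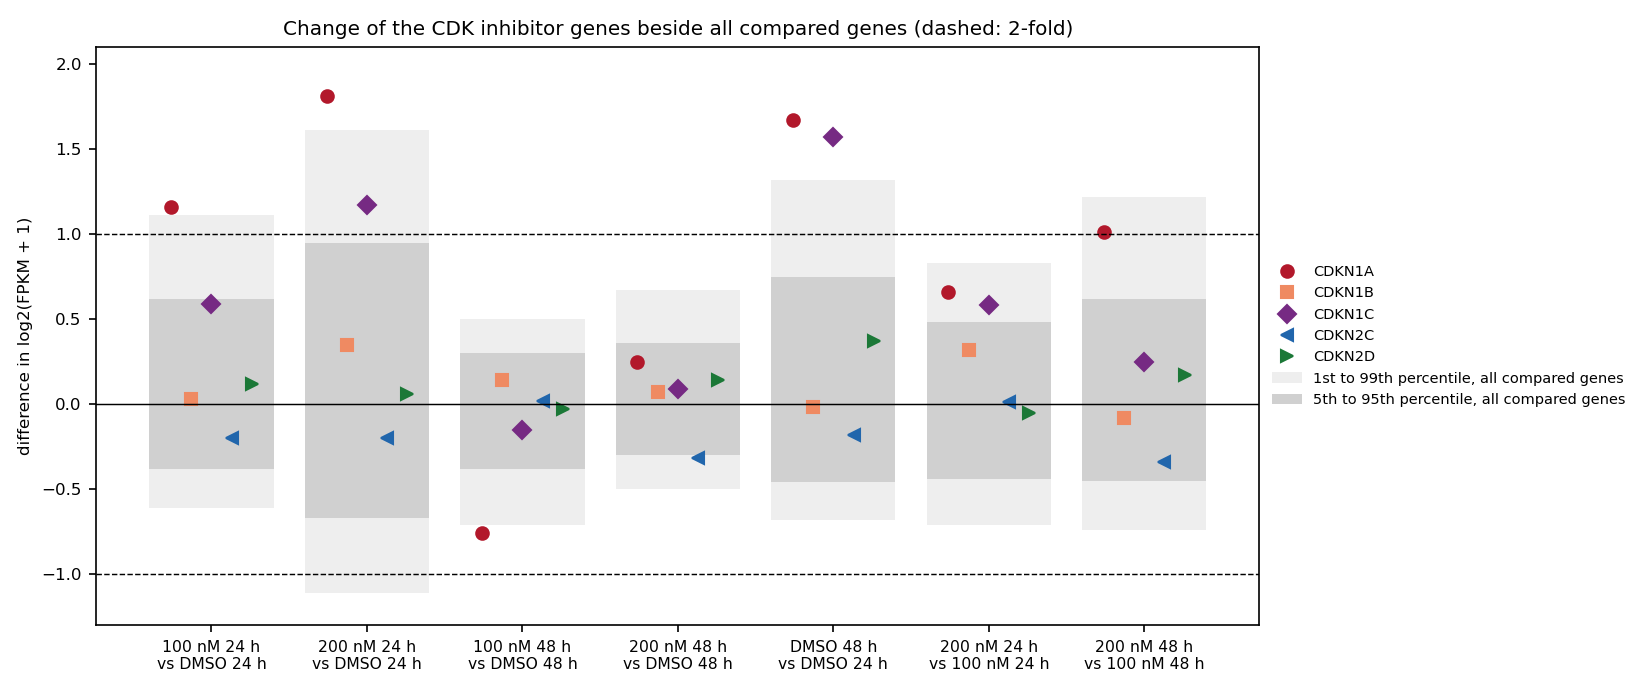
Difference in log2(FPKM + 1) (vertical axis) of the 5 expressed CDK inhibitor genes in 7 comparisons, with grey bars for the ranges of all compared genes and dashed lines at 2-fold. CDKN1A lies above the range of 1st to 99th percentile in all 3 comparisons with DMSO 24 h, and below it for 100 nM against DMSO 48 h, while CDKN1B, CDKN2C and CDKN2D lie between -0.34 and 0.37 in every comparison.

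The genes whose levels over the 6 libraries lay closest to those of CDKN1A were CLU, F11R, PTPRE, ADRA1B and FOLR1, by the Euclidean distance between centred log2(FPKM + 1) values among 11893 genes. The distances ran from 0.26 for CLU to 0.39 for FOLR1. CLU, which encodes the secreted chaperone clusterin, had an FPKM of 18.05, 43.80 and 59.62 with rising dose at 24 h, and of 50.51 (DMSO), 34.38 (100 nM) and 65.40 (200 nM) after 48 h. Those closest to CDKN1C were FBXO32, MXI1, HDAC5, SLC67A1 and PDGFB, at distances from 0.17 to 0.28. MXI1, an antagonist of MYC, had 8.51, 14.61 and 22.57 at 24 h, then 26.41, 24.14 and 28.15 at 48 h, in the order DMSO, 100 nM and 200 nM. These genes were chosen for their likeness, so it is a description.

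SLC67A1, a solute carrier gene also named SLC22A18, was the fourth closest gene to CDKN1C and lies 13956 bases from it on chromosome 11, from 2920951 to 2946476. Its FPKM was 3.0 (DMSO), 5.48 (100 nM) and 8.27 (200 nM) after 24 h, then 12.66 (DMSO), 11.99 (100 nM) and 11.83 (200 nM) after 48 h. It overlaps the antisense gene SLC67A1-AS, which stayed at or below 0.38, and whether the counting used the strand is not given in the sources used here. Both CDKN1C and SLC67A1 belong to an imprinted cluster. PHLDA2, another gene of it, 42508 bases from CDKN1C, behaved differently, with an FPKM of 80.70, 70.61 and 53.63 with rising dose at 24 h, then 79.39, 88.53 and 55.97 at 48 h. Farther out, the log2 changes at 200 nM 24 h were -0.19 for NAP1L4, 0.19 for CARS1 and 0.34 for OSBPL5. Between the DMSO libraries they were -0.16, 0.20 and 0.52, and none of these was a call. The region was examined after the pattern of SLC67A1 had been seen.

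**Figure D4:**
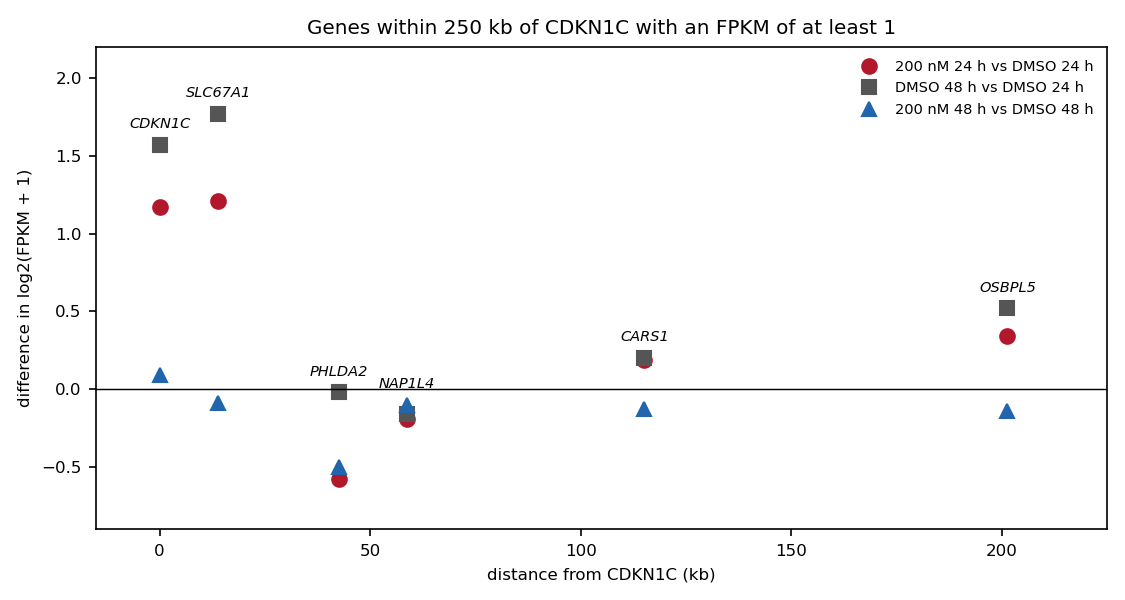
Difference in log2(FPKM + 1) (vertical axis) of CDKN1C and of the genes within 250 kb with an FPKM of at least 1, against their distance from CDKN1C in kb, for 3 comparisons given by symbol. CDKN1C and SLC67A1 lie above 1 at 200 nM 24 h and between the DMSO libraries, and PHLDA2 lies at -0.58 at 200 nM 24 h.

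The partners of the CDK inhibitors are cyclins and CDKs, and 13 of them were listed. At 200 nM 24 h, 0 were called higher and 1 was called lower, of 13 compared, beside 4.49% and 1.48% of all genes, with a median log2 change of -0.33. Of the 13, 5 had a change above 0 and 8 below. The one called was CCNE2, a cyclin that activates CDK2, whose FPKM was 24.13 (DMSO), 20.26 (100 nM) and 10.16 (200 nM) after 24 h, and 12.57, 9.24 and 12.64 at 48 h. Its log2 change at 200 nM 24 h was -1.17 against DMSO 24 h and -0.28 against DMSO 48 h, where it was not a call. Among the targets of the INK4 proteins, CDK4 had 87.01, 68.01 and 52.35 at 24 h, then 69.54, 81.13 and 62.89 at 48 h, and CDK6 stayed between 7.09 and 11.32. CCND1, the cyclin D1 gene, had 210.17, 262.47 and 299.19 at 24 h, then 237.21, 192.02 and 260.67 at 48 h. The low D-type cyclin gene CCND2 had 0.06 in DMSO 24 h and 1.11 at 200 nM 24 h, a log2 change of 0.99, just short of a call. CDK4, CDK6, CCND1 and CCND2 were named after their values were seen. In the other 3 comparisons with DMSO of the same time, 0 cyclins or CDKs were called, and the medians were -0.11, -0.13 and -0.06.

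The RB family and E2F factors, which act below the CDKs, had no call among the 11 genes in any of the 4 comparisons. Their medians were -0.11 and -0.32 at 24 h, then 0.03 and -0.03 at 48 h. E2F8, a repressor of E2F target genes, had the widest range, with 16.50, 13.34 and 7.94 at 24 h, then 10.95, 9.97 and 11.43 at 48 h. The log2 change of E2F8 was -0.97 at 200 nM 24 h, just short of a call, and -0.55 between the DMSO libraries. E2F4 had 45.44 in DMSO 24 h and 33.57 at 200 nM 24 h.

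Of 12 subunits of the ubiquitin ligases that degrade p21, p27 and p57, 1 was called lower at 200 nM 24 h, where 1.48% of all genes were, and none was called in the other 3 comparisons with DMSO of the same time. SKP2, the subunit that recognises p27, had an FPKM of 20.89 (DMSO), 16.44 (100 nM) and 9.44 (200 nM) after 24 h, a log2 change of -1.07 at 200 nM. Against DMSO 48 h, the change of the same library was -0.70, which was not a call. At 48 h it was 15.97, 13.74 and 14.02. The medians of the list were -0.10 and -0.19 at 24 h, then 0.04 and -0.09 at 48 h. The level of the transcript does not give the amount of the proteins, which were not measured here.

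Of 21 transcription factors known to act on these genes, 2 were called higher at 200 nM 24 h, of 19 compared, beside 4.49% of all genes. MYC, a repressor of CDKN1A transcription, had an FPKM of 48.70, 65.29 and 111.93 with rising dose at 24 h, then 73.36, 51.73 and 88.88 at 48 h. FOXO1, an activator of CDKN1B, had 2.46, 4.25 and 6.84 at 24 h, then 4.24, 4.63 and 6.10 at 48 h. Both had a log2 change of 1.18 at 200 nM 24 h. Against DMSO 48 h, the changes were 0.60 for MYC and 0.58 for FOXO1, and neither was a call. SP1 lay between 15.06 and 19.52 and was named after its values were seen. No factor was called in the other 3 comparisons with DMSO of the same time, and the medians of the list were 0.06 and 0.25 at 24 h, then 0.05 and -0.01 at 48 h.

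The 16 listed chromatin repressors had no call in the 4 comparisons, with medians of -0.03, -0.23, -0.02 and 0.00. UHRF1 and BMI1 had the widest ranges. UHRF1, which guides DNA methylation after replication, had 38.56, 33.74 and 22.39 at 24 h, then 22.73, 21.12 and 20.26 at 48 h. BMI1, the Polycomb subunit known for silencing CDKN2A, had 21.35, 19.27 and 14.37 at 24 h, then 15.25, 12.58 and 11.71 at 48 h. The 15 other listed proteins linked to cyclin-CDK complexes had no call either, with medians of -0.13 and -0.16 at 24 h, then -0.06 and -0.07 at 48 h. Among them, CDC25A, a phosphatase that activates CDK2, had 9.46, 8.39 and 5.30 at 24 h, then 4.82, 4.06 and 5.23 at 48 h, and CDK2AP1 had 98.18, 63.27 and 48.79 at 24 h, then 68.23, 86.10 and 59.86 at 48 h. The log2 change of CDK2AP1 was -0.99 at 200 nM 24 h, just short of a call, and -0.52 between the DMSO libraries.

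**Figure D5:**
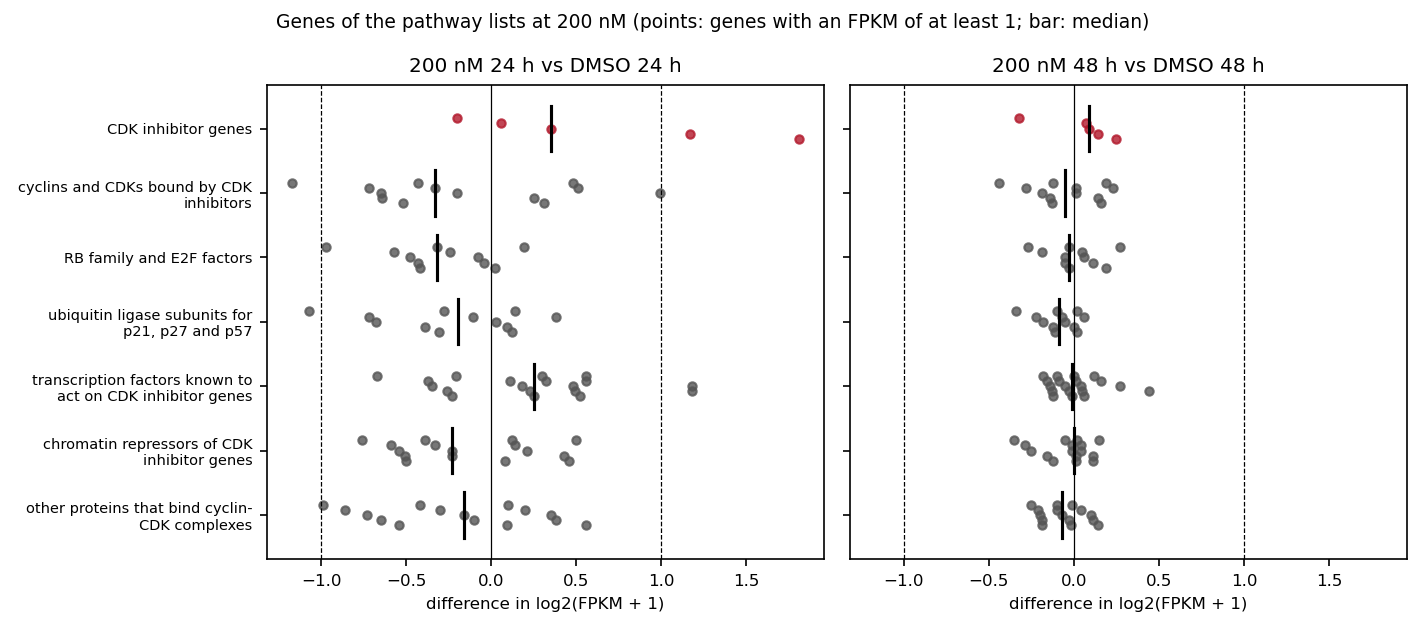
Difference in log2(FPKM + 1) (horizontal axis) for 200 nM at each time relative to its DMSO library, with 1 point for each gene with an FPKM of at least 1 and a bar for the median of the CDK inhibitor genes and of 6 lists of their partners and regulators. At 24 h the medians are 0.35 for the CDK inhibitor genes and -0.33 for the cyclins and CDKs, and at 48 h the 7 medians drawn lie between -0.09 and 0.09.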

How the data were processed

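RNA-seq of MDA-MB-231 cells gave 1 library for each of 6 conditions. The deposited values are FPKM, calculated by the authors per NCBI Gene ID and rounded to 2 decimals. The submitters' processing notes name Bowtie2, RSEM and hg19, without versions or roles. Library construction followed mRNA enrichment or rRNA depletion by a company. Symbols came from the RefSeq gene table of GRCh38.p14, which matched 16585 of 16623 genes, and promoter sequences from RefSeq, with no coordinates converted between builds.

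Changes are differences in log2(FPKM + 1), and calls needed 2-fold and an FPKM that reached 1 in one or both libraries. FPKM are not counts and each condition has 1 library, so no test was run. The call rule was tried on simulated data, with changes well above 2-fold planted in well-expressed genes and counting noise alone. That trial does not cover low genes such as CDKN1C, changes near 2-fold or variation between cultures. Depth was inferred from low FPKM of single-transcript genes between 500 and 1500 bases long (GENCODE release 29), using 227 to 271 genes per library, and is approximate, as are the counting intervals, which use the median transcript length of each gene. At these depths 3 fragments on a 2 kb transcript correspond to an FPKM between 0.0852 and 0.0962.

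The text names the CDK inhibitor genes, called genes of the lists or otherwise the 2 with the widest range in a list, neighbours of CDKN2A and CDKN2B, and the 5 genes closest in pattern to each called member. No gene of the files overlapped a member. One listed gene and 1 gene list are not reported here. The members and lists were chosen with earlier results of these data known. Alternatives were pseudocounts of 0.1 and 0.01, no filter, a filter on both libraries, TPM, median-of-ratios factors, a 1.5-fold threshold and the mean of both DMSO libraries as reference. After seeing the data, each DMSO library alone was added as a reference. Python 3.11.15, numpy 2.4.6, pandas 2.3.3, scipy 1.17.1 and matplotlib 3.10.9 were used.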

Additional observations from a re-analysis of the deposited data

Results flagged for a closer look

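CDKN1A was singled out because its change at 100 nM went in opposite directions at the 2 times, by at least 1.2-fold in each. The log2 change was 1.16 at 100 nM 24 h against DMSO 24 h and -0.76 at 100 nM 48 h against DMSO 48 h. With 1 library per condition, the difference between the times was not tested. The FPKM in the 100 nM libraries was 30.61 at 24 h and 25.81 at 48 h, and in the DMSO libraries 13.18 and 44.25.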

How the results depend on the processing

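No paired analysis was possible because the 6 conditions have 1 library each, and for the same reason no library could be left out within a condition. The choice of DMSO reference mattered most. With the mean of both DMSO libraries, 0 CDK inhibitor genes were called higher at 24 h at either dose. This was in place of 1 at 100 nM and 2 at 200 nM. At 200 nM 48 h, 1 (CDKN1A) was called higher in place of 0. These counts hide near-equal values: against this mean, the log2 change of CDKN1A at 200 nM was 0.98 at 24 h, just short of a call, and 1.09 at 48 h. Each DMSO library as the only reference was an alternative chosen after seeing the data. With DMSO 48 h, 0 were called higher at either dose at 24 h, and the changes of CDKN1A at 100 nM 24 h and CDKN1C at 200 nM 24 h turned to -0.52 and -0.40. With DMSO 24 h, 1 (CDKN1C) was called higher at 100 nM 48 h and 2 (CDKN1A and CDKN1C) at 200 nM 48 h. The listed genes CCNE2, SKP2, MYC and FOXO1 also lost their calls at 200 nM 24 h against the mean DMSO and against DMSO 48 h. The cause was not tested.

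With a 1.5-fold threshold, or a pseudocount of 0.1 or 0.01, 2 genes were called higher at 100 nM 24 h, CDKN1C being added, and the 1.5-fold threshold also called 1 (CDKN1A) lower at 100 nM 48 h. A filter on both libraries left 1 at 200 nM 24 h and 1 between the DMSO libraries, because CDKN1C is under 1 in DMSO 24 h. Rescaling to TPM or by median-of-ratios factors changed no call of these genes. The median log2 change of the compared CDK inhibitor genes depended on the reference and filter. At 200 nM 24 h, 0.35 became 0.21 with the filter on both libraries and 0.06 with no filter. It became 0.37 against the mean DMSO and -0.02 against DMSO 48 h. At 100 nM 24 h, 0.12 became -0.07 and -0.25 against these references. At 48 h, -0.03 (100 nM) and 0.09 (200 nM) became 0.34 and 0.51 against DMSO 24 h. Among all genes, the count called higher at 200 nM 24 h was 523, and 1463 at 1.5-fold, 880 and 938 with pseudocounts of 0.1 and 0.01, 855 as TPM, 323 with the filter on both libraries, 214 against the mean DMSO and 101 against DMSO 48 h. At 100 nM 24 h it was 155, and 640, 384, 422, 332, 99, 22 and 7 in the same order. In all, 31 of 43 recomputed counts of genes called higher and 27 of 43 called lower moved by over 1.5 times. CDKN2A and CDKN2B rest on about 3.1 fragments or fewer, and the cell line is known to have lost their locus, so no change in them could be assessed.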
